A study of Mus musculus with 6 samples.

Results

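This account covers 10 immediate early genes of the EGR, NR4A and IER groups in mouse large peritoneal macrophages: Egr1, Egr2, Egr3, Nr4a1, Nr4a2, Ier2, Ier3, Ier5, Klf6 and Btg2. The genes were taken by name from a fixed list, which was chosen with earlier results of these data known. All 10 are among the 20336 genes of the deposited table. Large peritoneal macrophages (LPM) are the resident phagocytes that make up most of the macrophages of the mouse peritoneum. They were sorted by surface staining from lavage cells taken 30 min after intraperitoneal injection of E. coli, and their polyA RNA was sequenced. There were 3 PAC knockout libraries and 3 floxed control libraries, 6 in all, and every library came from infected mice. PAC is a chloride channel that opens in acid. The knockout genotype is labelled Cxcr3-PAC-/-, whereas the design text names Cx3cr1-PAC-/-, so the gene that drives the deletion is given in 2 ways. The control genotype is labelled PAC F/F and the sample titles call it WT. No driver is named for it, so a driver allele and the loss of PAC cannot be told apart. Strain, age and sex are not given in the labels. PBS-treated mice, which the design text also names, were not analysed here, and induction by infection was therefore not measured.

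Immediate early genes are switched on within minutes of a stimulus because the factors that bind their promoters are already present in the resting cell and need only be modified. Serum response factor (SRF) with its ternary complex partners answers to MAP kinases, and CREB answers to calcium, cyclic AMP and stress kinases. In macrophages, microbial ligands and phagocytosis induce these genes. EGR proteins are zinc finger transcription factors, NR4A proteins are orphan nuclear receptors that act without a known hormone, and IER proteins are small regulators of growth and survival signalling.

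RefSeq promoter windows (build GRCm38.p6), matched by symbol, were used for 7 of the 10 genes, in 11 windows. Egr1, Egr3 and Ier2 were not searched, so nothing can be said here about motifs in their promoters. That they were left out does not mean that they have no annotated window. The 7 genes searched therefore do not stand for all 10. The 250 bases before the annotated start were searched on both strands for letters bound by the factors named above and by the members themselves. The CREB motif TGACGTCA is in 1.55% of all 32851 mouse windows, its core TGACG in 17.8%, and the SRF motif (the CArG box, searched by its usual consensus) in 1.47%. The EGR motif GCGTGGGCG is in 0.536%, its variant GCGGGGGCG in 2.57% and the NR4A motif AAAGGTCA in 1.34%. These letters were found for 4 of the 7 genes searched, and 1 window of each is printed, with no base in an annotated exon. Capitals mark the matches, and the core TGACG reads CGTCA on the other strand. Egr2 (chr10:67537619-67537868, plus strand, between exons of the longer Egr2 transcripts) holds a CArG box that starts 72 bases before the start and 2 CREB cores. Nr4a1 (chr15:101266596-101266845, plus strand, likewise inside the gene) holds 4 CREB cores and 1 copy of the EGR variant, read on the minus strand. Nr4a2 (chr2:57124004-57124253, minus strand) holds 4 CREB cores. Btg2 (chr1:134079156-134079405, minus strand) holds the full CREB motif, which contains the core on both strands and so counts as 2 cores. Each match is a run of letters and not a measured binding site. The printed windows had 61.6% to 80% G or C, against a median of 52.4% over all windows. The shares over all windows were not adjusted for this.
Egr2: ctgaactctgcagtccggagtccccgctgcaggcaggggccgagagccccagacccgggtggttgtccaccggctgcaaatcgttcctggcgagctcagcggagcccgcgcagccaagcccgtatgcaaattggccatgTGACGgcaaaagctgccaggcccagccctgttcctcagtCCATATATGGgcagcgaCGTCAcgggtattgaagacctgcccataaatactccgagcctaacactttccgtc
Nr4a1: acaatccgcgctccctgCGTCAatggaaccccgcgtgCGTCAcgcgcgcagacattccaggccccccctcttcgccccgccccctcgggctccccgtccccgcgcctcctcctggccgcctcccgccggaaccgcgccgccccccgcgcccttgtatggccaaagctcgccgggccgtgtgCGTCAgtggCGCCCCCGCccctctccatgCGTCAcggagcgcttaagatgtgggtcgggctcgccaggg
Nr4a2: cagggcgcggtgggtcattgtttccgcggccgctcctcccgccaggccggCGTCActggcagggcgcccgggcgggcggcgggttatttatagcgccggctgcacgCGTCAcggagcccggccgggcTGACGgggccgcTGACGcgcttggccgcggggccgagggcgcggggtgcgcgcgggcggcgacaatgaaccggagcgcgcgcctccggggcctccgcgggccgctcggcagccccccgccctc
Btg2: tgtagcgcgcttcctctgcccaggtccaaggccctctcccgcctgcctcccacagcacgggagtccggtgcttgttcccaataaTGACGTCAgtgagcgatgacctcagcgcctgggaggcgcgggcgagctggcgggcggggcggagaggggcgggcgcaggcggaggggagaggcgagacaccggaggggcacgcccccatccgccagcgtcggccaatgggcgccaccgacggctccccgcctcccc
The windows of Ier3, Ier5 and Klf6 held none of the letters searched. Egr2 has 5 windows, of which 1 held none and 1 held a CArG box alone.

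Libraries held 15981530 to 20648832 counts. The members had 1143 to 85883 counts per library, so counting error was at most 2.96% of a value in a library. Whether a library stands for 1 mouse is not labelled, and p-values therefore reflect just the spread among these libraries, possibly a technical one. The targeted gene, listed as Tmem206, stood at 4.27, 6.13 and 5.49 CPM (library-scaled counts, by TMM) in the knockout libraries, against 6.33, 12.2 and 8.16 CPM in the control libraries. The means were 5.30 ± 0.946 CPM in the knockout and 8.91 ± 3.02 CPM in the control (SD, n = 3 each), so its transcript remained in the knockout libraries. Its log2 fold change (knockout over control) was -0.75 (SE 0.31). It did not pass edgeR's quasi-likelihood test (adjusted p = 0.997). The groups did not overlap, beside 9.33% of all tested genes, and the two-sided exact permutation p was 0.1, the lowest possible. The 12 LPM markers, among them Gata6, Timd4 and Icam2, were present in every library, with summed levels of 59516 to 62268 CPM in the knockout and 50867 to 67980 CPM in the control, of which Lyz2 held 34854 to 37798 CPM and 30045 to 41540.4 CPM. In sorted bulk RNA, fewer cells of a type and less RNA per cell cannot be told apart.

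No member passed the test between PAC knockout and floxed control. All 10 passed the filter on low counts, and 0 of 10 had an adjusted p under 0.05 in edgeR's quasi-likelihood test, beside 0 of 12786 genes tested (0%). Unadjusted edgeR p-values under 0.05 were found for 0 members and 534 genes, and DESeq2 and limma-voom called 0 members beside 22 and 0 genes. The 2 groups of CPM values overlapped for all 10 members. They did not overlap for 9.33% of all tested genes, and 0 of 10 members is not set apart from that share. Log2 fold changes ran from -0.25 (Ier5) to 0.69 (Nr4a2), with 4 positive and 6 negative. Their median was -0.05, and the median over all tested genes was -0.01. Each member had an edgeR adjusted p of 0.997, the smallest in the table. A two-sided exact permutation test on 3 against 3 libraries cannot go below p = 0.10, and the members gave 0.3 to 1. Leaving out 1 library turned the sign of 8 members, all but Ier5 and Nr4a2. Without control replicate 2 the members' median was 0.29 and 3 members no longer overlapped (Egr1 and Egr2 higher, Ier5 lower), beside 2325 of 13275 genes. Without knockout replicate 2 Nr4a1 no longer overlapped (lower, beside 2637 of 13324 genes), and without knockout replicate 3 Nr4a2 no longer did (higher, beside 2772 of 13189 genes).

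**Figure D1:**
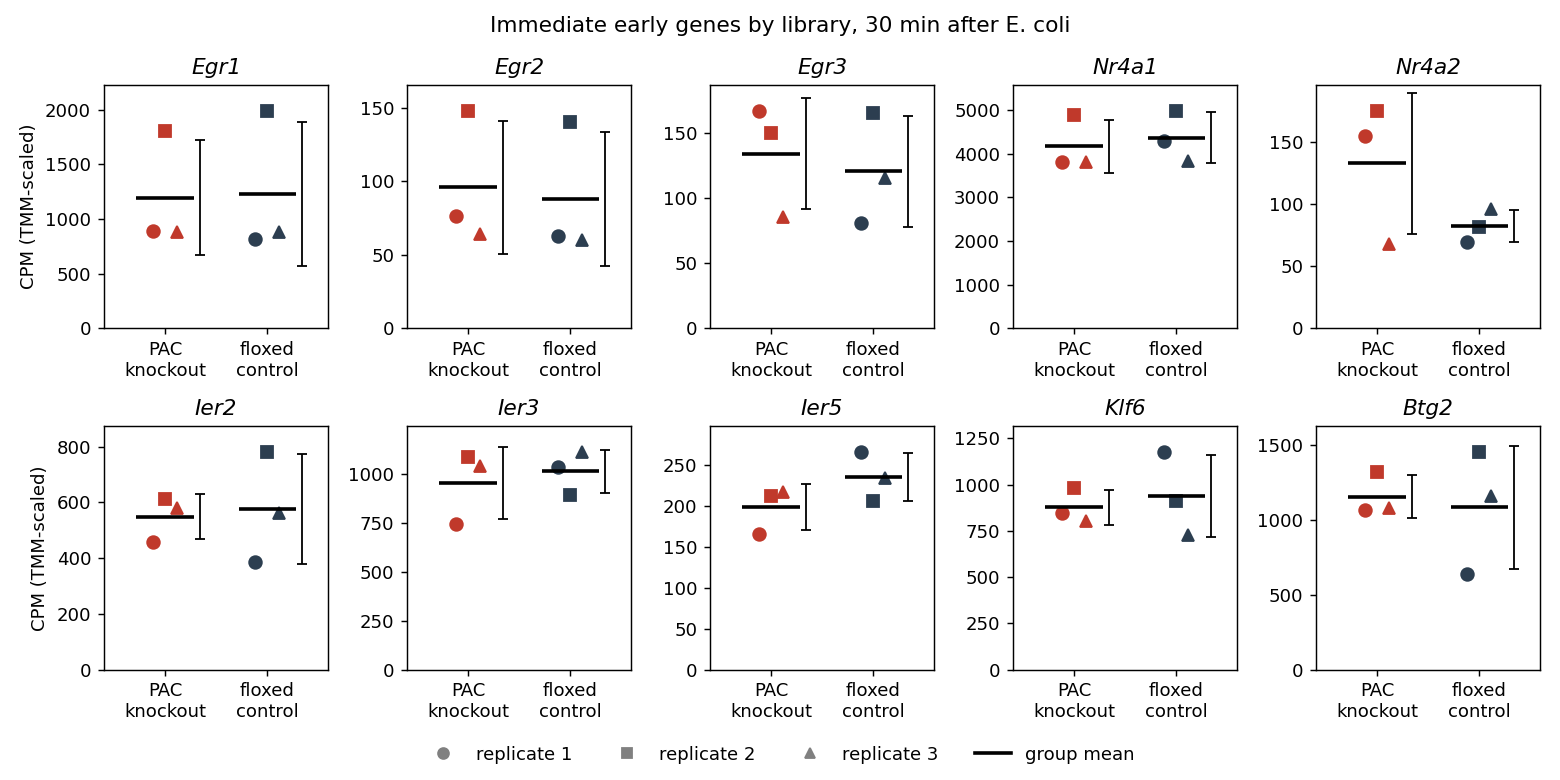
CPM (y axis, from 0, TMM-scaled) of each of the 10 genes in 3 PAC knockout libraries (left, red) and 3 floxed control libraries (right, dark). Symbols give the replicate number, thick bars the group mean and thin bars ± SD (n = 3). Replicate 2 of both groups stands apart for Egr1 and Egr2, and for every gene the groups overlap.

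Egr1, the best known early growth response factor, had 895, 1803 and 886 CPM in knockout libraries 1 to 3, against 815, 1989 and 884 CPM in control libraries 1 to 3 (chromosome 18, 34859823 to 34864984, plus strand, GRCm38). Replicate 2 of each group stood far above the other libraries, and without it all values lay close together. The means were 1195 ± 527 CPM in the knockout and 1229 ± 659 CPM in the control (SD, n = 3 each). The log2 fold change was -0.04 (SE 0.46, 95% interval -1.16 to 1.08). Without both libraries numbered 2, a setting chosen after seeing the data, it was 0.068 (SE 0.16). Egr2, a relative that in macrophages and T cells takes part in later gene programmes, had 76.4, 148 and 63.9 CPM in the knockout, against 63.0, 141 and 60.2 CPM in the control (chromosome 10, 67535475 to 67542188, plus strand). The same pair of libraries was high. Egr2 averaged 96.0 ± 45.3 CPM in the knockout and 87.9 ± 45.7 CPM in the control (SD, n = 3 each), with a log2 fold change of 0.13 (SE 0.47, 95% interval -1.04 to 1.30).

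Egr3, which is itself a target of EGR and calcium signalling in lymphocytes, departed from that pattern (chromosome 14, 70077203 to 70082614, plus strand). It had 167, 149 and 85.6 CPM in the knockout, against 80.8, 165 and 115 CPM in the control. Knockout replicate 1, not replicate 2, held its highest value. The log2 fold change of Egr3 was 0.15 (SE 0.32, 95% interval -0.61 to 0.91). Per gene length (FPKM), Egr1 made up 75.8% to 84.0% of the EGR family in every library, Egr2 7.26% to 9.02%, Egr3 7.04% to 14.4% and Egr4 0.531% to 1.88%. Of these shares, that of Egr1 averaged 80.5% ± 4.10 in the knockout and 82.2% ± 1.60 in the control (SD, n = 3 each).

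Nr4a1 (Nur77), the NR4A receptor induced by inflammatory and antigen signals, had the smallest fold between its lowest and highest library (chromosome 15, 101254269 to 101274795, plus strand). It had 3815, 4879.8 and 3816 CPM in the knockout, against 4293, 4979 and 3826 CPM in the control. Replicate 2 was again the highest of each group, by a smaller margin. The means were 4171 ± 614 CPM in the knockout and 4366 ± 580.1 CPM in the control (SD, n = 3 each), and the log2 fold change was -0.07 (SE 0.16, 95% interval -0.41 to 0.28). A 2-fold difference in either direction lies outside that interval.

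Nr4a2 (Nurr1), its relative best known from dopamine neurons, had the largest difference of the 10 genes (chromosome 2, 57106830 to 57124003, minus strand). It had 155, 175 and 68.3 CPM in knockout libraries 1 to 3, against 70.0, 82.0 and 96.2 CPM in control libraries 1 to 3. Knockout replicates 1 and 2 lay above every control library, and knockout replicate 3 lay below every one. The means were 133 ± 56.9 CPM in the knockout and 82.7 ± 13.1 CPM in the control (SD, n = 3 each). The log2 fold change was 0.69 (SE 0.34, 95% interval -0.12 to 1.49), with an edgeR p of 0.0824 and an adjusted p of 0.997. The two-sided exact permutation p was 0.4. DESeq2 gave an unadjusted p of 0.0159 and an adjusted p of 0.840, and in the authors' deposited table Nr4a2 has a log2 fold change of 0.68, a p of 0.00932 and an adjusted p of 0.708. Without knockout replicate 3 the log2 fold change was 1.00, with an edgeR p of 0.000132 and an adjusted p of 0.266. Nr4a2 therefore passed the threshold in none of these fits.

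Within the NR4A family the ratio of Nr4a1 to Nr4a2 counts was 24.5, 27.8 and 55.9 in knockout libraries 1 to 3, against 61.4, 60.7 and 39.8 in control libraries 1 to 3. Knockout replicates 1 and 2 had the lowest ratios, and the groups overlap through replicate 3 of each. Per gene length, Nr4a2 made up 2.55% ± 0.932 of the family's FPKM in the knockout and 1.59% ± 0.410 in the control (SD, n = 3 each), while Nr4a1 held 92.2% to 96.8% in every library. The remaining receptor, Nr4a3, had 323, 292 and 140.1 CPM in the knockout, against 331, 158 and 204 CPM in the control. Its knockout replicate 3 was also low, and its log2 fold change was 0.12 (SE 0.39).

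The IER genes encode small, quickly made proteins with no close kinship to the factors above. Ier2, a nuclear protein linked to cell movement, had 457, 612 and 579 CPM in the knockout, against 386, 780.0 and 561 CPM in the control (chromosome 8, 84661331 to 84662852, minus strand). The control libraries enclosed the knockout libraries, and the log2 fold change was -0.07 (SE 0.24, 95% interval -0.60 to 0.46). Ier3 (IEX-1), which modulates survival and ERK signalling, had 746, 1087 and 1041 CPM in the knockout, against 1040.3, 897 and 1114 CPM in the control (chromosome 17, 35821684 to 35822923, plus strand). Only knockout replicate 1 lay below the control libraries, and the log2 fold change of Ier3 was -0.09 (SE 0.16, 95% interval -0.45 to 0.28).

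Ier5, a partner of phosphatase PP2A that acts on heat shock factor 1, had 166, 212 and 217 CPM in the knockout, against 265, 206 and 234 CPM in the control (chromosome 1, 155096361 to 155099636, minus strand). A single control library, replicate 2, lay within the knockout range. Ier5 averaged 198 ± 27.9 CPM in the knockout and 235 ± 29.7 CPM in the control (SD, n = 3 each). Its log2 fold change of -0.25 (SE 0.15, 95% interval -0.57 to 0.08) was the lowest of the 10 genes and did not pass (edgeR adjusted p = 0.997).

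Klf6, a Krüppel-like zinc finger factor of inflammatory macrophages, had 845, 982 and 802 CPM in the knockout, against 1175, 911 and 729.9 CPM in the control (chromosome 13, 5861482 to 5870394, plus strand). The control libraries were the more spread out, on both sides of the knockout libraries. The log2 fold change of Klf6 was -0.10 (SE 0.18, 95% interval -0.49 to 0.29). Btg2, an antiproliferative protein that brings the CCR4-NOT deadenylase to mRNAs, had 1069.6, 1323 and 1079 CPM in the knockout, against 641, 1453 and 1159.7 CPM in the control (chromosome 1, 134075170 to 134079120, minus strand). Control replicate 1 was low by itself. The log2 fold change of Btg2 was 0.09 (SE 0.27, 95% interval -0.51 to 0.70).

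**Figure D2:**
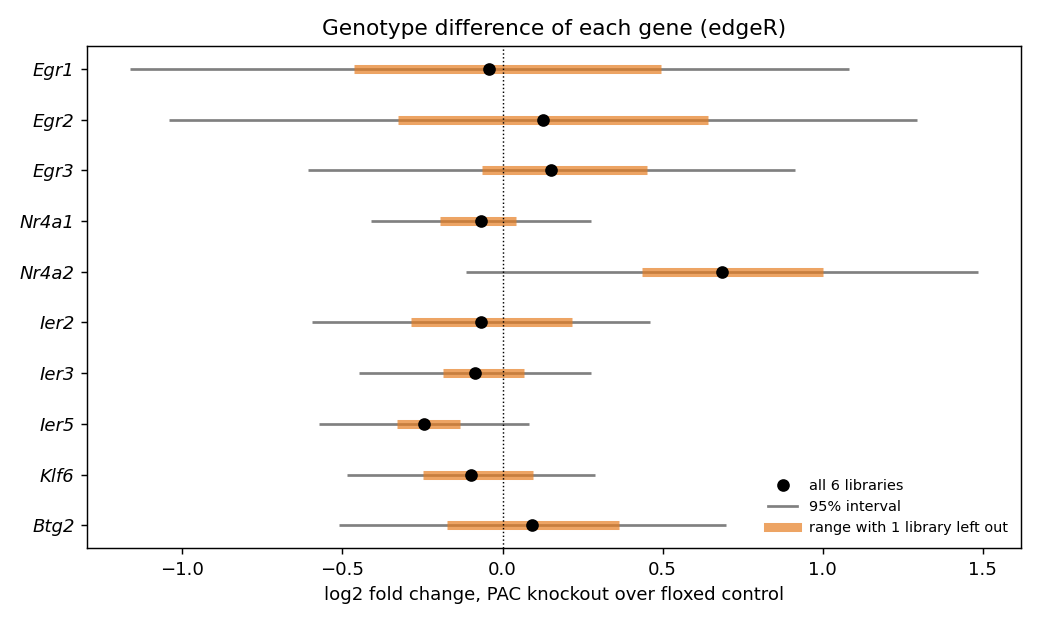
Log2 fold change of each gene (x axis, PAC knockout over floxed control, edgeR) with its 95% interval (grey) and the range of estimates when 1 library is left out (orange). Every 95% interval includes 0, being widest for Egr2 (-1.04 to 1.30) and narrowest for Ier5 (-0.57 to 0.08), and the orange ranges of Ier5 and Nr4a2 alone stay on 1 side of 0.

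Levels were compared between genes per gene length, as the authors' FPKM. Nr4a1 was the most abundant at 1364 ± 183 FPKM (SD over 6 libraries), rank 35 of 20336 genes by mean, and Ier3 followed at 979 ± 140.0 FPKM, rank 52. The 6 values of Nr4a1 (1201 to 1592 FPKM) did not overlap those of Ier3 (734 to 1085 FPKM), which in turn lay above all values of Btg2. Btg2 (457 ± 112 FPKM), Ier2 (414 ± 99.2 FPKM), Egr1 (303 ± 134 FPKM) and Klf6 (232 ± 43.6 FPKM) formed a middle group in which the ranges of neighbours overlapped. Compared within each library, Btg2 lay above Ier2 in 5 of 6 libraries, Ier2 above Egr1 in 6 and Egr1 above Klf6 in 5. Ier5 stood alone at 74.2 ± 11.8 FPKM, rank 612. Egr3 (32.3 ± 9.78 FPKM), Egr2 (30.4 ± 13.6 FPKM) and Nr4a2 (29.8 ± 12.7 FPKM) came last and did not differ beyond their spread. Even these ranked 1339, 1428 and 1454 of 20336 genes. This order is by the mean over both genotypes; Nr4a2 averaged 36.7 ± 15.8 FPKM in the knockout and 22.8 ± 3.18 FPKM in the control (SD, n = 3 each).

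**Figure D3:**
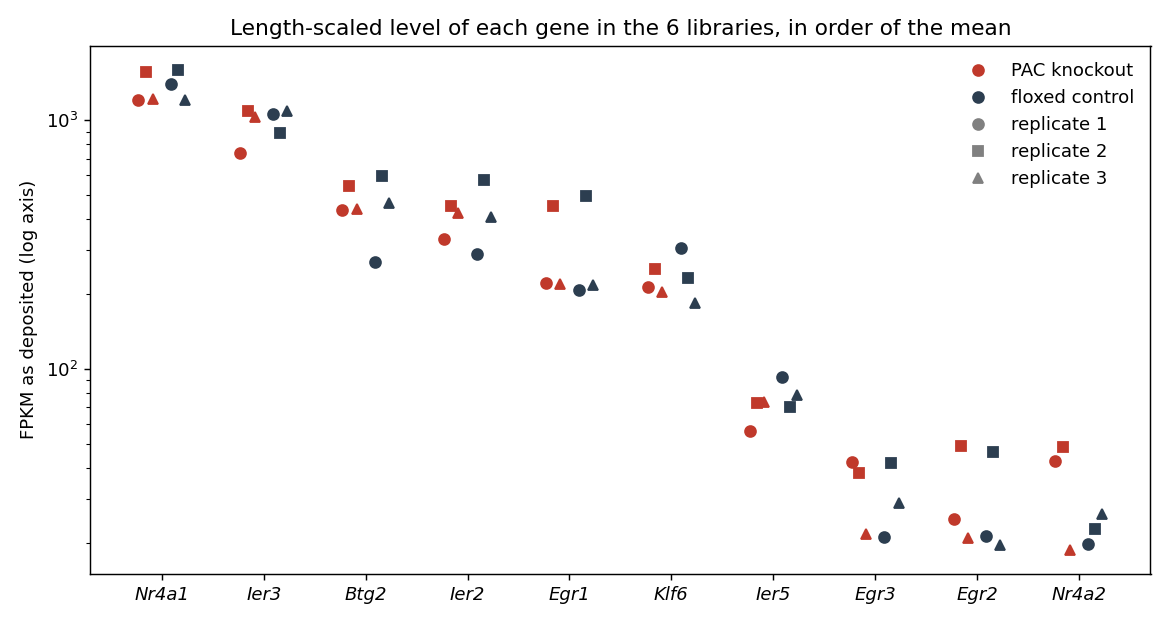
FPKM as deposited (y axis, log scale) of the 10 genes in order of their mean, in PAC knockout libraries (red, left of each pair) and floxed control libraries (dark, right). Symbols give the replicate number. Nr4a1 and Ier3 stand at the top, Ier5 by itself at 56.4 to 92.8 FPKM, and Egr3, Egr2 and Nr4a2 overlap at the bottom.

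Libraries of the same genotype differed widely in several of these genes. The within-group SD of log2 CPM was 0.653 for Egr1, 0.663 for Egr2, 0.547 for Nr4a2, 0.515 for Egr3, 0.448 for Btg2 and 0.392 for Ier2. It was lower for Klf6 (0.266), Ier3 (0.239), Ier5 (0.198) and Nr4a1 (0.198). Over the 6445 genes with a mean log2 CPM of 4 or more the median SD was 0.187, and all 10 members lay above it. Egr1 and Egr2 stood at percentiles 98.5 and 98.6 of those genes, Nr4a1 at 54.6. From lowest to highest library the CPM of Egr2 differed 2.46-fold, that of Nr4a2 2.57-fold and that of Nr4a1 1.31-fold.

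Egr1 and Egr2 shared their high libraries. In replicate 2 the level of Egr1 was 2.03 times the mean of replicates 1 and 3 in the knockout and 2.34 times in the control, and that of Egr2 was 2.11 and 2.28 times. Both were over 1.5 times in both groups, as was Jun (1.91 and 2.17 times) and as were 2.10% of all tested genes. Replicate 2 held the highest value of both groups for 5 of the 10 members (Egr1, Egr2, Nr4a1, Ier2 and Btg2), against 11.5% of all tested genes. The same held for 3 of the 8 AP-1 genes listed (the Fos and Jun genes and Atf3). Of 18 further immediate early genes it held for 2. Fos was 1.17 times the mean of the others in the knockout and 1.93 times in the control. These libraries were looked at after their values were seen, and beyond that number nothing in the labels ties the replicate 2 libraries together.

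Summed over the 10 genes, members took 0.841%, 1.13% and 0.862% of the counts in knockout libraries 1 to 3, against 0.831%, 1.23% and 0.886% in control libraries 1 to 3. The mean log2 CPM of the members, centred per gene, was -0.07, 0.35 and -0.20 in the knockout and -0.25, 0.27 and -0.10 in the control. The groups overlap, with knockout replicate 2 above every control library and control replicate 1 below every knockout library. Not every member followed this: Ier3, Ier5, Klf6 and Nr4a2 were below the mean of the other control libraries in control replicate 2 (0.833, 0.825, 0.957 and 0.987 times). Control replicate 1 held the lowest value of 4 members and the highest of 2, Ier5 and Klf6.

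Some pairs of members kept their proportion across all libraries. The ratio of Egr1 to Egr2 counts ran from 11.7 to 14.7 over the 6 libraries, a span of 1.25-fold and the smallest of the 45 pairs, whose median span was 2.47-fold. Egr1 alone varied 2.44-fold over the same libraries. Ier3 over Ier5 ran from 3.92 to 5.14 (1.31-fold), and Ier2 over Btg2 from 0.427 to 0.602 (1.41-fold). At the other end, Egr1 over Nr4a2 spanned 4.22-fold. These pairs were ranked on the same 6 libraries and carry no test.

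**Figure D4:**
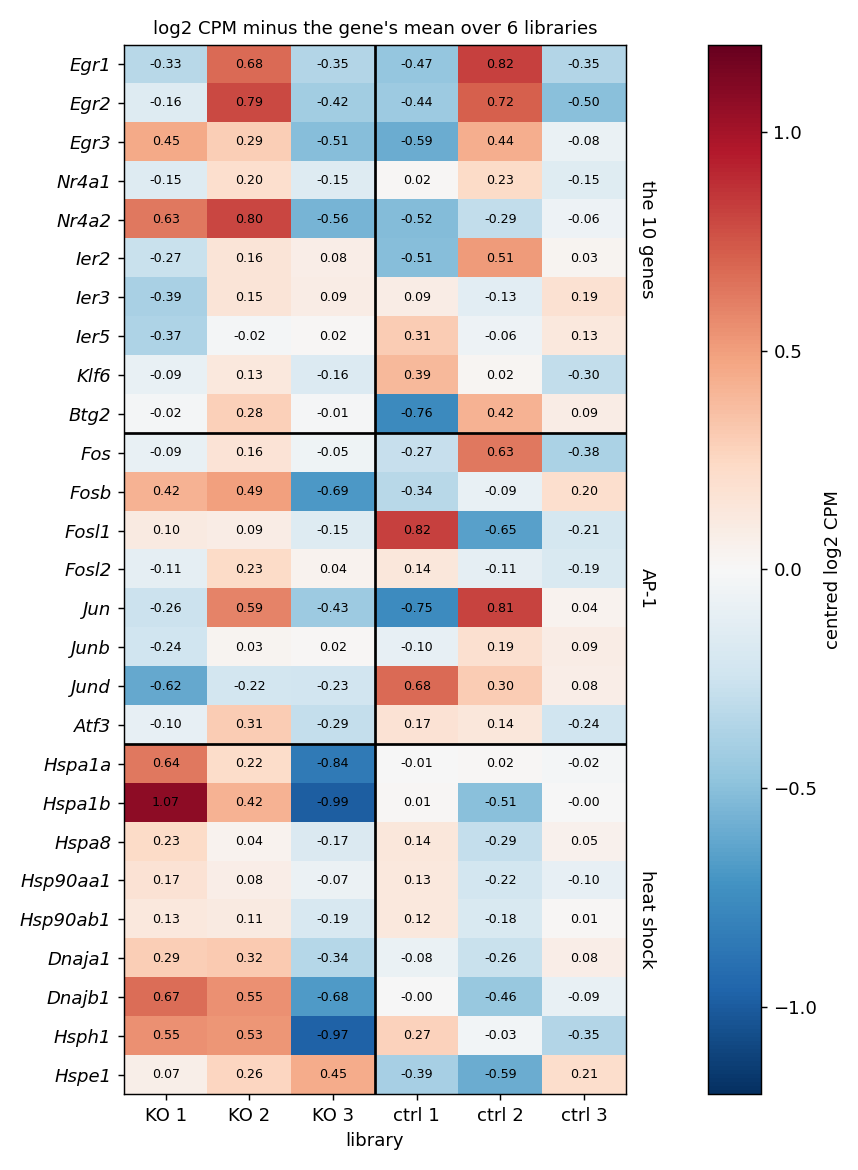
Log2 CPM minus the gene's mean over the 6 libraries (colour and printed value) for the 10 genes (top), AP-1 genes (middle) and heat shock genes (bottom), with PAC knockout (KO) libraries left and floxed control (ctrl) libraries right. Egr1, Egr2 and Jun are high in KO 2 and ctrl 2, whereas Nr4a2, Fosb and Hspa1b are high in KO 1 and KO 2 and low in KO 3.

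Heat shock genes are known to be raised by stress and cell handling. In the knockout libraries those listed, other than Hspe1, were lowest in replicate 3, as Nr4a2 was. Hspa1b, an inducible HSP70 gene, had 708, 450.3 and 169.8 CPM in the knockout, against 341, 238 and 337 CPM in the control. Knockout replicates 1 and 2 were high and knockout replicate 3 low, as for Nr4a2 and for the AP-1 gene Fosb, with 481, 506 and 224 CPM in the knockout, against 286, 339.9 and 415 CPM in the control. The summed CPM of the 9 heat shock genes was 7497, 6625 and 5034 in the knockout, against 6467, 5029 and 6140 in the control. All 9 log2 fold changes were positive (median 0.20) and 0 of 9 passed the test, with the smallest edgeR p-values for the mitochondrial chaperonin Hspe1 (log2 fold change 0.49, SE 0.22) and the HSP40 gene Dnajb1 (log2 fold change 0.47, SE 0.34). The LPM marker Timd4, named after its values were seen, was also high in knockout replicates 1 and 2 and low in knockout replicate 3, with 897, 976 and 337 CPM in the knockout, against 481, 603 and 459 CPM in the control. Among the knockout libraries Gata6 was lowest in replicate 3 too (84.1, 94.8 and 59.4 CPM in the knockout, against 61.5, 67.0 and 69.2 CPM in the control). Of the other LPM markers, Adgre1, Csf1r, Cd14, Garnl3 and Selp were also lowest in knockout replicate 3. Itgam, Lyz2 and Cebpb were highest there, and Icam2 and Alox15 were in between. The part of cell handling in the levels of Nr4a2 was not tested.

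Markers of other cells were summed per library. B cell markers gave 295, 66.7 and 125 CPM in the knockout, against 74.5, 491 and 46.6 CPM in the control. They were highest in control replicate 2, and among the knockout libraries lowest in replicate 2. Markers of small peritoneal macrophages and monocytes gave 5128, 1978 and 3207 CPM in the knockout, against 4307, 3367 and 4051 CPM in the control. Cd74 alone held 1284 to 3419 CPM of this in the knockout and 1471 to 2659 CPM in the control. Of the 10 tested markers 8 were negative, with a median log2 fold change of -1.17. The groups did not overlap for 3 (Ccr2, Cd226 and Fcrls, all lower in the knockout), beside 9.33% of all tested genes. Mast cell and eosinophil markers gave 140.0 to 250 CPM in the knockout and 57.6 to 146 CPM in the control, of which Hdc alone held 138 to 216 CPM and 52.2 to 139 CPM. Neutrophil markers were at 5.38 to 14.0 CPM in the knockout and 2.00 to 4.63 CPM in the control, and the neutrophil marker Ly6g was at 0 in 5 of 6 libraries. Erythroid and platelet markers gave 509 to 691 CPM in the knockout and 418 to 591 CPM in the control, of which Pf4 alone held 509 to 683 CPM and 417 to 590.1 CPM. T and NK cell, dendritic cell and mesothelial markers were at or below 20.1 CPM in every library. The part of these cells in the members' levels was not tested.

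The genes around the members gave no call either. Of 14 close relatives (other EGR, NR4A, IER, KLF and BTG or TOB genes) 0 passed in either direction, with 3 positive and 11 negative log2 fold changes (median -0.12). Klf4, a Krüppel-like factor of macrophage polarisation, had 140.1, 156 and 171 CPM in the knockout, against 208, 227 and 198 CPM in the control. Its groups did not overlap, and its log2 fold change was -0.44 (SE 0.13, edgeR adjusted p = 0.997). Klf10, a TGF-beta-induced relative, had a log2 fold change of -0.60 (SE 0.21, edgeR adjusted p = 0.997). Among 8 partners and corepressors (RXR receptors, which pair with NR4A proteins, NAB corepressors of EGR proteins and subunits of CCR4-NOT), 0 passed and the median was -0.02. Their smallest edgeR p-values were 0.519 for Rxrb (log2 fold change -0.09, SE 0.13) and 0.551 for Cnot8 (0.11, SE 0.18).

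Among the 14 SRF, TCF, CREB and MEF2 regulators, factors that switch early genes on, 0 passed, with 3 positive and 11 negative (median -0.10). Crem, which encodes CREB-related activators and repressors, had 55.7, 34.3 and 32.3 CPM in the knockout, against 26.0, 22.6 and 30.9 CPM in the control, without overlap. Its log2 fold change was 0.62 (SE 0.22, edgeR adjusted p = 0.997). The CREB coactivator Crtc2 also had groups without overlap, with a log2 fold change of -0.35 (SE 0.13, edgeR adjusted p = 0.997). Of 16 MAP kinase cascade genes 0 passed (median -0.05), and the smallest edgeR p-values were 0.173 for the p38 substrate Mapkapk2 (log2 fold change -0.21, SE 0.14) and 0.296 for the RAF kinase Braf (-0.22, SE 0.20).

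Other immediate early genes did not pass either. Of the 8 AP-1 genes, subunits of the dimeric factor formed by Fos and Jun proteins, 0 passed, with 2 positive and 6 negative (median -0.08) and a range of -0.72 to 0.22. The log2 fold change was -0.06 (SE 0.25) for Fos, -0.12 (SE 0.14) for Junb and -0.72 (SE 0.18) for Jund, whose groups did not overlap and which had the smallest edgeR p (0.00174, adjusted p = 0.997). Of 18 further immediate early genes that passed the filter, of 19 listed, 0 passed the test, with 7 positive and 11 negative (median -0.09). Their smallest edgeR p-values were 0.0298 for the small GTPase Rhob (log2 fold change -0.59, SE 0.23) and 0.196 for the ERK phosphatase Dusp6 (-0.41, SE 0.30).

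**Figure D5:**
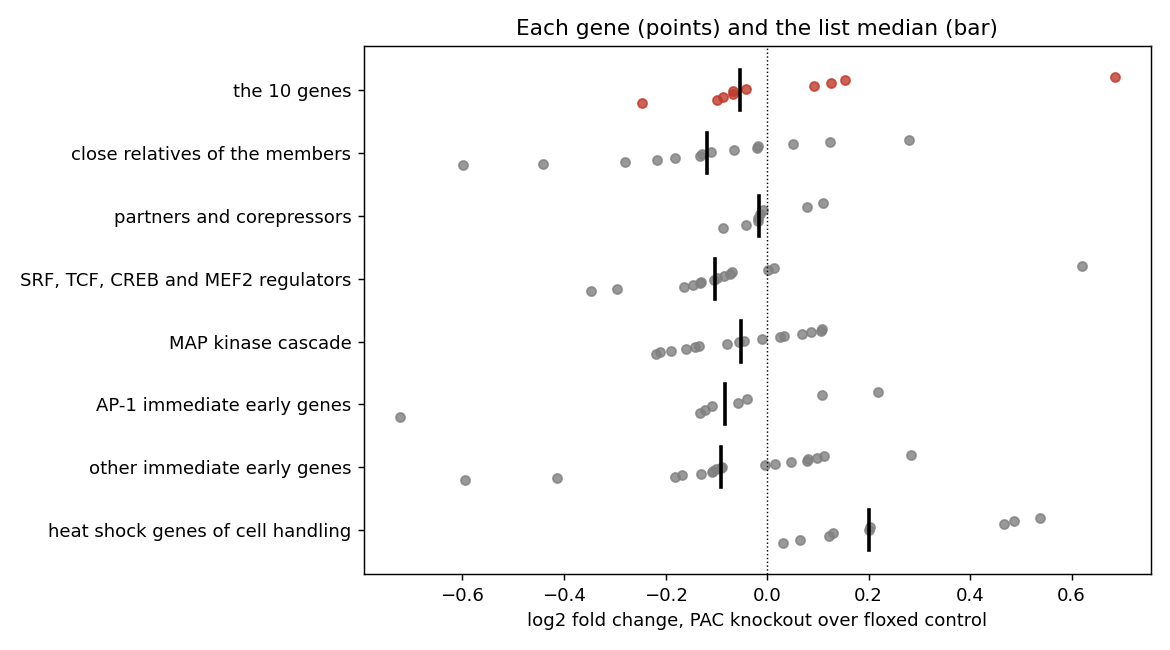
Log2 fold change (x axis, PAC knockout over floxed control) of each gene (points) in the 10 genes (top row, red) and in 7 lists of related genes (grey), with the list median as a bar. List medians lie between -0.12 and 0.20, and the heat shock list is the one whose points all lie above 0.

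The 5 genes whose profile was most like the members' mean profile were sought among 6242 protein-coding genes with a mean log2 CPM of 4 or more, by root mean square difference of centred log2 CPM over 6 libraries. They were Mtfr1 (0.0623), Zfp512b (0.0674), Tk2 (0.0690), Fam160b2 (0.0692) and Hbp1 (0.0815). By the same measure the members themselves lay between 0.132 (Nr4a1) and 0.450 (Nr4a2) from their own mean. A mean over 10 genes varies less than a single gene, and the measure carries no test.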

How the data were processed

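The members and gene lists were chosen with earlier results of these data known, so no list has a test of its own. Library construction used the NEBNext Ultra II kit, per the labels' protocols. The submitters' processing notes name HISAT2 2.0.5, featureCounts 1.5.0-p3 and the mm10 build (GRCm38). The sources used here give neither annotation release nor strand setting. No gene of the GENCODE annotation of that build overlapped a member, and its coordinates equal those of the files for all 10.

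The deposited table gives raw counts, which were tested, and the authors' FPKM (scaled by gene length, per the labels' protocols), which were used for levels between genes. The authors' normalised signal, a count divided by a size factor per library, was not tested. The deposited log2 fold changes and p-values are the authors' own, with 22 genes at an adjusted p under 0.05 and 0 members. The gene length in the deposited table is a further value of the authors. Columns of other samples numbered 0.

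Genes were kept by edgeR's default filter (12786 of 20336) with TMM scaling. Knockout was tested against control by the robust quasi-likelihood method of edgeR 4.0.16 (R 4.3.3), with no term but genotype, and p-values were adjusted by Benjamini-Hochberg over all tested genes (threshold 0.05). On simulated counts the method recovered 63% of 100 genes changed 2-fold and 92% of 100 changed 4-fold. It gave 0 wrong signs, and 16 further calls were false, to be read beside the 63 and 92 genes recovered. The 12471 genes tested include the changed ones. Changed genes were drawn at random above a low level. Recovery was not worked out for genes as variable as Egr1 and Egr2. SEs come from the F statistic. A library's 0 allows up to 0.154 to 0.190 CPM (3 counts), and intervals of counting cover counting error only. No library pair lay within sampling noise, with a chi-square per gene of at least 25.3. Group labels come from the genotype and treatment fields.

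Named genes were the 10 members, the targeted gene, the 2 genes of smallest p of each list, Fos, Junb and the 5 genes most like the members. Egr4, Nr4a3, Fosb, Jun, Hspa1b, Pf4, Hdc, Cd74, Ccr2, Cd226, Fcrls and the LPM markers, Timd4, Gata6 and Lyz2 among them, were named after their values were seen. The driver candidates were near 0, with 0 to 18 counts per library for Cx3cr1 and 0 to 16 for Cxcr3, and were not tested. Alternatives were other size factors, library totals, no or a stricter filter (CPM of at least 1 in 3 libraries), DESeq2 1.42.0, limma-voom (3.58.1) with quality weights, a non-robust prior, a replicate block, each library left out and a threshold of 0.1. Leaving out both libraries numbered 2 was chosen after seeing the data.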

Additional observations from a re-analysis of the deposited data

How the results depend on the processing

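No member passed under any alternative. None of 80 member values under other scalings, filters, tests or the block changed sign. Over all genes, 38 were called with no filter (20 higher, 18 lower) and 22 by DESeq2 (11 higher, 11 lower), and leaving out single libraries gave 0 to 18. The members' median ran from -0.19 to 0.29 when 1 library was left out (0.29 without control replicate 2), and that of the other immediate early genes from -0.14 to 0.049 (0.049 without control replicate 1). With library totals only, 1 member (Ier5, lower) had groups that did not overlap, beside 8.74% of all genes. With 1 library left out it was 0 to 3, beside 16.1% to 24.7%, and without both libraries numbered 2 it was 5 (Egr1 and Egr2 higher, Nr4a1, Ier3 and Ier5 lower), beside 31.3% of all genes; the last setting was chosen after seeing the data and turned Egr1 to 0.068 and Ier2 to 0.13.

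With 1 library left out, log2 fold changes ran from -0.46 to 0.49 for Egr1, -0.33 to 0.64 for Egr2, -0.065 to 0.45 for Egr3, -0.19 to 0.041 for Nr4a1, -0.29 to 0.22 for Ier2, -0.19 to 0.066 for Ier3, -0.25 to 0.10 for Klf6 and -0.17 to 0.36 for Btg2, all of which crossed 0. Those of Ier5 (-0.33 to -0.13) and Nr4a2 (0.44 to 1.00) did not. The cause was not tested.

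Whether replicate numbers pair the libraries is not labelled. Deviations from the group means of same-numbered libraries correlated at -0.03, 0.02 and 0.21 over 6445 genes, and other pairings at -0.17 to 0.15. Over the 10 members same-numbered libraries correlated at -0.14, 0.60 and 0.06, and other pairings at -0.47 to 0.35. Replicates 3 of both groups were the closest of all library pairs (chi-square per gene 25.3). Their sample descriptions carry consecutive numbers, as do those of knockout replicates 1 and 2. What these numbers stand for is not labelled. With the replicate number as a block 0 genes were called, the members' median was -0.01 and Nr4a2 stood at 0.60. The block narrowed Egr1 (-0.001, SE 0.13) and Egr2 (0.14, SE 0.12), whose SEs were 0.46 and 0.47 without it. Limits are 3 libraries a group, 1 time point and no uninfected cells.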
